A study of Saccharomyces cerevisiae with 35 samples.

Results

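RDN25-1, RDN18-1 and RDN5-1 are the columns of the count tables that hold ribosomal RNA (rRNA) of budding yeast, Saccharomyces cerevisiae. They were taken by name and are 3 of 5843 feature columns, and 3 of the 14 rRNA genes of the RefSeq annotation. Together they held 12.5% of the 706151625 unique molecular identifiers (UMIs, tags that count molecules) in 173347 single cells. Single cells came from fpr1 deletion strains and from wild-type strains (background FY4/5) that were mixed and grown in 1 flask of YPD at 30 °C, and rapamycin was added at 200 ng/mL after 20 min of sampling. Each of 2 cultures was drawn off without a break into fixative and split into 8 intervals of 10 min, from -20 to 60 min around the drug, which gave 16 libraries with both genotypes in each. FPR1 encodes the FKBP protein that rapamycin must bind before it can inhibit the kinase complex TORC1, so the fpr1 deletion cells were the drug-resistant cells of the same flask. A second set of 33 bulk libraries came from 3 wild-type cultures of the same background, sampled before the drug (0 min) and at 10 times up to 120 min in 200 ng/mL rapamycin. A culture sampled over the same time without the drug was not analysed here, and deletion and wild-type cells of 1 library share their flask, droplet run and sequencing.

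Ribosomal RNA is made from a tandem array of repeats on chromosome XII. RNA polymerase I transcribes a long precursor that is cut into 18S rRNA (RDN18, small subunit), 5.8S and 25S rRNA (RDN25, large subunit), and RNA polymerase III transcribes 5S rRNA (RDN5) from a separate gene in each repeat. TORC1 keeps these polymerases and the ribosomal protein genes active in rich medium, and rapamycin shuts off new ribosome synthesis. Mature rRNA carries no poly(A) tail. Both library types here start from oligo(dT) primers, so the rRNA counts are what reached such primers and not the amount of rRNA in a cell.

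RDN25-1 lies at chrXII:451786-455181 and RDN18-1 at chrXII:455933-457732, both on the minus strand, and RDN5-1 lies at chrXII:459676-459796 on the plus strand (RefSeq, R64, the assembly of the build sacCer3 named in the submitters' processing notes). The RNAs are 3396, 1800 and 121 bases long. The 3′ ends and the runs of adenines within each RNA are printed because they are places that an oligo(dT) primer could meet. All are written in the RNA's own 5′ to 3′ direction with T for U, and capitals mark the last 4 bases or a run of AAAAA or longer. The coordinates given for a run are those of the whole printed stretch, which holds 25 bases at each side of the run.
RDN25-1 3′ end: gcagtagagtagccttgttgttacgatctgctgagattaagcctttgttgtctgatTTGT
RDN18-1 3′ end: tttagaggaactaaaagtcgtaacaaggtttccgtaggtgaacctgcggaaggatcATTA
RDN5-1 whole RNA: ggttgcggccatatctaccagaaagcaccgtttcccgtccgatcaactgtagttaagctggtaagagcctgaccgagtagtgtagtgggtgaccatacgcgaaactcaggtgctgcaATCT
RDN25-1 run at chrXII:454758-454812: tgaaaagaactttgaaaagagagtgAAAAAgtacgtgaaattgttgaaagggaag
RDN18-1 run at chrXII:457486-457541: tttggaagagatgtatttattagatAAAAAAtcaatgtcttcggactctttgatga
RDN18-1 run at chrXII:457085-457139: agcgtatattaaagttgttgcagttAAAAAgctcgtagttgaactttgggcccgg
RDN18-1 run at chrXII:456951-457006: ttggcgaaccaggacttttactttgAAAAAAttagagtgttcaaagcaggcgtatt

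None of the 3′ ends closed with such a run. RDN25-1 held 1 run of AAAAA or longer, RDN18-1 held 3 and RDN5-1 held none, searched on the transcribed strand alone, with a longer run counted once. Of 369 coding genes at least as long as RDN25-1, 99.7% held a run in their first 3396 bases, and the median was 11 runs. For RDN18-1 that share was 98.0% of 1632 coding genes with a median of 6 runs, and for RDN5-1 it was 29.4% of 5960 coding genes. Other stretches were rich in A as well. The 20 bases with most A held 12 in RDN25-1 (from base 48), 11 in RDN18-1 (from base 206) and 8 in RDN5-1 (from base 8). Such windows were not counted in coding genes. Where on these RNAs the counted reads lie is not given by the tables. The array has near-identical copies: RDN25-2 and RDN18-2 had the same sequence as RDN25-1 and RDN18-1, RDN5-6 had the same sequence as RDN5-1, and RDN5-2 to RDN5-5 were 2 bases shorter with the substitution A118G (RDN5-1 base first, counted from its 5′ end). The copies have no column among those analysed here, so the 3 columns may hold reads of any repeat.

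The deletion cells numbered 444 to 911 a library with 1501368 to 5191196 UMIs, and the wild-type cells 1693 to 14688 with 3993298 to 69114350 UMIs. FPR1 itself stood at 13.6 to 98.9 CPM (UMIs scaled to 1 total for all libraries, with 1% written as 10000 CPM) in deletion cells and at 915 to 1824 in wild-type cells of the same libraries, which is 1.03% to 7.91% of the wild-type level. Every yeast cell makes rRNA, so no cell group here should lack it, and the FPR1 left in deletion cells is the measure at hand of RNA that reached a cell's barcode from elsewhere or of misassigned cells. Of 169649 barcodes, 3646 occurred in more than 1 library, and each of the 120 pairs of libraries shared 1 to 76. Cells within a library are not replicates, so UMIs were summed by genotype and library, and n is 2 cultures at each interval.

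25S rRNA (RDN25-1) was the feature with the most UMIs in all 32 sums, counted without regard to length. In fpr1 deletion cells of culture 1 its share of all UMIs ran 7.33%, 9.73%, 6.70%, 9.44%, 14.0%, 14.6%, 18.4% and 16.6% over the 8 intervals, and in culture 2 it ran 3.75%, 4.31%, 3.09%, 3.92%, 5.94%, 5.68%, 5.43% and 7.63%. In wild-type cells it ran 7.55%, 9.98%, 7.23%, 12.6%, 20.8%, 24.9%, 29.1% and 29.6% in culture 1, and 4.29%, 4.31%, 3.35%, 5.35%, 9.69%, 10.3%, 10.3% and 14.0% in culture 2. Within each culture and genotype, every value from 20 min on lay above both untreated values of that culture. Culture 1 lay above culture 2 at every interval in both genotypes, so the treated values of culture 2 overlapped the untreated values of culture 1 in both genotypes. Counting error was small beside this, with exact 95% intervals at most 0.0899 percentage points wide. UMIs are counted once each, but these intervals cover counting error only.

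At 50 to 60 min RDN25-1 took 12.1% ± 6.36 of UMIs in fpr1 deletion cells and 21.8% ± 11 in wild-type cells (mean ± SD, n = 2 cultures each). Against the mean of its own culture's untreated intervals, the share was 1.95-fold and 1.89-fold in deletion cells of cultures 1 and 2, and 3.37-fold and 3.25-fold in wild-type cells. The TMM scale of edgeR put the median log2 change of all genes at 0.05 in deletion and 0.11 in wild-type cells at 50 to 60 min. On that scale the log2 change of RDN25-1 in deletion cells was 0.59, 0.59, 0.84 and 0.83 in the 4 intervals from 20 to 60 min (SE 0.79 each). In wild-type cells it was 0.61, 0.73, 0.85 and 1.00 (SE 0.79 each). None of these passed edgeR's quasi-likelihood test with Benjamini-Hochberg adjustment at an adjusted p of 0.05, with adjusted p of 0.535 to 0.768 in deletion cells and 0.255 to 0.506 in wild-type cells. A fit with the culture as a block called RDN25-1 in deletion cells at 20 to 30, 40 to 50 and 50 to 60 min, with log2 changes of 0.54, 0.65 and 0.77 (SE 0.17 each; adjusted p = 0.0479, 0.00950 and 0.00270), when 3.75%, 8.96% and 8.58% of all genes were called higher. The missed interval, 30 to 40 min, gave 0.51 with an adjusted p of 0.0577 in edgeR's test. In wild-type cells the blocked fit called all 4 (log2 change 0.54, 0.61, 0.67 and 0.91, SE 0.17; adjusted p = 0.00613, 0.00236, 0.00100 and 3.11e-05), when 41.5%, 44%, 44.8% and 44.5% of all genes were called higher. Without the treated library of culture 1, the unblocked fit sets culture 2 against untreated libraries of both cultures, and the log2 change turned to -0.28, -0.40, -0.63 and -0.11 in deletion cells at the 4 intervals, and to -0.19, -0.31 and -0.43 in wild-type cells at the first 3 of them, with 0.07 left at 50 to 60 min. Within culture 2, TMM-scaled levels from 20 min were 48390 to 69357 CPM in deletion cells, against 41199 and 47657 CPM untreated, and 63699 to 90609 CPM in wild-type cells, against 53796 and 54718 CPM untreated, so each lay above its own culture's untreated values.

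**Figure D1:**
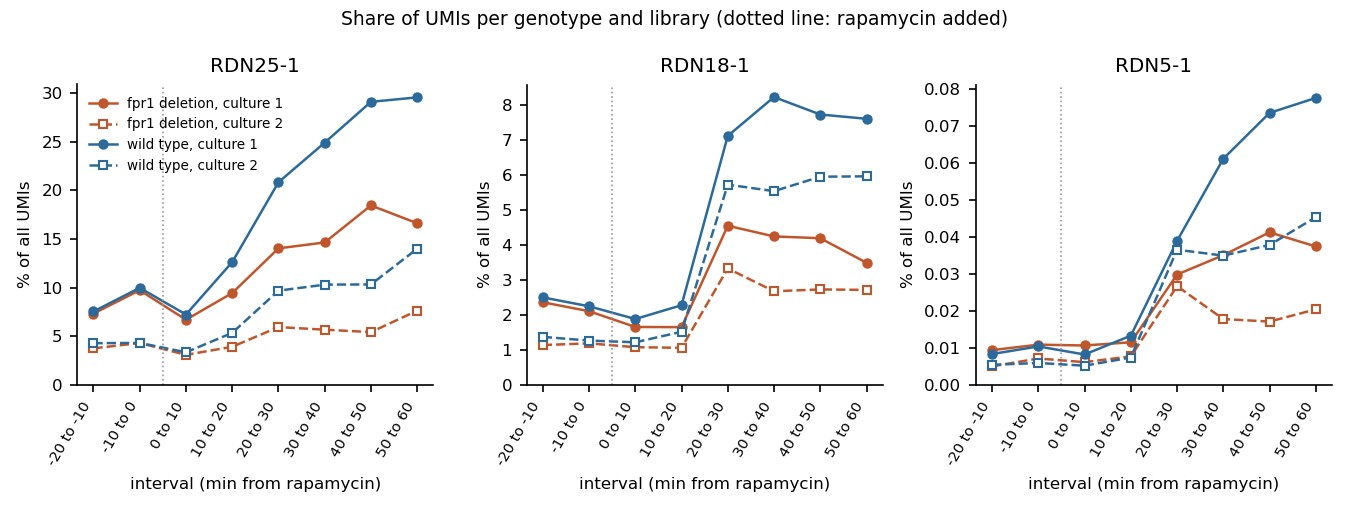
Share of all UMIs (%, y axis) of RDN25-1, RDN18-1 and RDN5-1 in each 10 min interval (x axis) for fpr1 deletion cells (orange) and wild-type cells (blue) of culture 1 (filled circles) and culture 2 (open squares), 1 point per library and genotype. All 3 rRNAs stepped up between 10 to 20 min and 20 to 30 min in all 4 lines, and wild-type lines ended above the deletion lines of the same culture.

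18S rRNA (RDN18-1), the RNA of the small subunit, had a share that separated the intervals before and after 20 min. In fpr1 deletion cells it ran 2.36%, 2.11%, 1.66%, 1.65%, 4.55%, 4.25%, 4.20% and 3.49% in culture 1, and 1.14%, 1.19%, 1.08%, 1.06%, 3.33%, 2.68%, 2.73% and 2.72% in culture 2. In wild-type cells it ran 2.50%, 2.25%, 1.88%, 2.28%, 7.12%, 8.23%, 7.73% and 7.61% in culture 1, and 1.37%, 1.27%, 1.22%, 1.52%, 5.73%, 5.54%, 5.95% and 5.96% in culture 2. No value up to 20 min reached any value after it in either genotype, over both cultures. In wild-type cells the share from 20 min stayed within 7.12% to 8.23% in culture 1 and within 5.54% to 5.96% in culture 2.

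In the first 20 min RDN18-1 in deletion cells had log2 changes of -0.34 and -0.35 (SE 0.46 each; edgeR's quasi-likelihood test, Benjamini-Hochberg adjusted p of 1.000 each), and both this fit and the blocked one called 0% of all genes at 0 to 10 min and at most 0.018% at 10 to 20 min. In wild-type cells it was -0.38 at 0 to 10 min and -0.35 at 10 to 20 min (SE 0.46 each), and neither passed edgeR's quasi-likelihood test (Benjamini-Hochberg adjusted p = 0.674 and 0.544), when 19.7% and 60.7% of all genes were called in either direction. The blocked fit called both lower (-0.35 and -0.32, SE 0.11 each; edgeR, adjusted p = 0.0160 and 0.0115), when 14.5% and 32.1% of all genes were. The later call depended on the scaling. For 10 to 20 min, the plain wild-type share was 0.959-fold the untreated mean in culture 1 but 1.15-fold in culture 2. UMIs per wild-type cell were 0.853-fold and 0.980-fold. The median log2 change of all genes in that comparison was 0.04 with TMM and 0.43 with library totals. For 0 to 10 min, the share was lower in each culture (0.793-fold and 0.923-fold). From 20 min the log2 changes of RDN18-1 in deletion cells were 1.11, 0.90, 0.88 and 0.70 (SE 0.44 to 0.45) and none passed (edgeR, adjusted p = 0.195, 0.284, 0.221 and 0.345). The blocked fit called RDN18-1 in deletion cells at all 4 intervals, with log2 changes of 1.16, 0.93, 0.89 and 0.75 (SE 0.10 each; edgeR, adjusted p = 5.79e-07, 4.41e-05, 2.06e-05 and 6.60e-05). That fit called 3.75%, 4.16%, 8.96% and 8.58% of all genes higher in deletion cells. RDN18-1 rose in wild-type cells at all 4 intervals from 20 min, with log2 changes of 1.15, 1.17, 1.08 and 1.10 (SE 0.44 each; edgeR's quasi-likelihood test, Benjamini-Hochberg adjusted p = 0.0272, 0.0238, 0.0335 and 0.0309). Across all 5549 genes tested, 37.7%, 40.9%, 41.7% and 41.9% were called higher in wild-type cells at these intervals, so a call in this direction was common. The unblocked wild-type calls were each lost without any 1 of 3 libraries: at 50 to 60 min the log2 change was 0.65 without treated culture 1 (edgeR, adjusted p = 0.317), and 0.92 without either untreated library of culture 2 (adjusted p = 0.0814 and 0.0876).

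5S rRNA (RDN5-1), made by RNA polymerase III, had the fewest UMIs of the 3. In deletion cells it stood at 93.9, 109, 106, 115, 298, 351, 412 and 374 CPM in culture 1, and at 50.0, 71.3, 61.4, 77.0, 267, 178, 171 and 204 in culture 2. In wild-type cells it stood at 83.4, 104, 82.1, 133, 389, 611, 735 and 776 CPM in culture 1, and at 54.3, 59.2, 51.9, 74.0, 365, 349, 378 and 453 in culture 2. As for 18S, no value up to 20 min reached any later value. After the step the wild-type level of culture 1 kept climbing, that of culture 2 moved little until the last interval, and in deletion cells culture 1 was highest at 40 to 50 min and culture 2 at 20 to 30 min.

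In deletion cells the log2 changes of RDN5-1 from 20 min were 1.73, 1.63, 1.79 and 1.74 (SE 0.56 each), and the one at 40 to 50 min passed (edgeR, adjusted p = 0.0453), when 5.17% of all genes were called higher there. The other intervals had adjusted p of 0.106, 0.111 and 0.0516, against 3.05%, 4.6% and 11.5% of all genes called in either direction. The blocked fit called RDN5-1 at all 4 in deletion cells, at log2 changes of 1.79, 1.56, 1.66 and 1.67 (SE 0.21 each, edgeR, adjusted p = 2.02e-04, 3.41e-04, 6.89e-05 and 6.39e-05). In that fit 3.75%, 4.16%, 8.96% and 8.58% of all genes were called higher in deletion cells. The deletion call at 40 to 50 min was lost without any 1 of 5 of its 6 libraries, at log2 changes of 0.70 to 2.06 (edgeR, adjusted p of 0.0567 to 0.602), and held without the treated culture 2 library. It was also lost when the wild-type share given by FPR1 was taken out of the deletion sums (log2 change 1.79; edgeR, adjusted p = 0.0695). Further alternatives that lost it were RLE factors (1.75, adjusted p = 0.0512), the last untreated interval alone (1.60, adjusted p = 0.198), the groups compared alone (1.77, adjusted p = 0.197), cells thinned to 1000 UMIs (1.59, adjusted p = 0.135) and the 5% of cells with most UMIs left out (1.41, adjusted p = 0.0807). RDN5-1 rose in wild-type cells at all 4 intervals, with log2 changes of 1.68, 1.96, 2.12 and 2.27 (SE 0.52 to 0.53; edgeR's quasi-likelihood test, Benjamini-Hochberg adjusted p = 0.00844, 0.00261, 0.00131 and 7.25e-04). The last of these is 4.83-fold. At these intervals 37.7%, 40.9%, 41.7% and 41.9% of all genes were called higher in wild-type cells. The unblocked wild-type calls at the first 3 of the intervals were lost without the treated culture 1 library (log2 change 1.53, 1.25 and 1.24; edgeR, adjusted p = 0.0636, 0.0912 and 0.0646), while the call at 50 to 60 min held without any 1 library (highest adjusted p 0.0315).

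**Figure D2:**
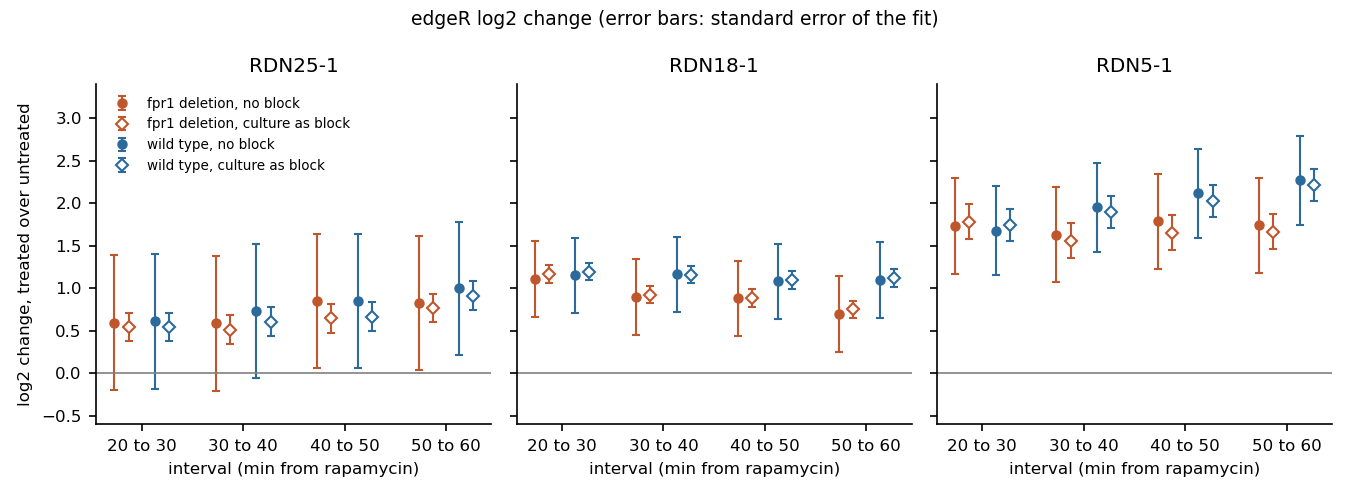
Log2 change of each rRNA at the 4 intervals from 20 min (x axis) against the untreated intervals, fitted by edgeR without a block (filled circles) and with the culture as a block (open diamonds), for fpr1 deletion cells (orange) and wild-type cells (blue), with bars for the standard error of the fit. The blocked values lie close to the unblocked ones and their bars are shorter, most of all for RDN25-1, where the SE is 0.17 against 0.79.

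The rRNAs varied more between cultures than the common value over genes. The coefficient of variation that edgeR estimated between sums of 1 group was 61.2% for RDN25-1, 36.1% for RDN18-1 and 43.3% for RDN5-1, beside a common value of 14.1% over all genes tested. The share of RDN25-1 in culture 1 was 1.95 to 3.4 times that in culture 2 in deletion cells and 1.76 to 2.82 times in wild-type cells. Before the drug, the change between both untreated intervals was 0.37, -0.07 and 0.37 on the log2 scale for RDN25-1, RDN18-1 and RDN5-1 in deletion cells and 0.29, -0.12 and 0.27 in wild-type cells, and none was called. Over all genes that comparison called 0% in either genotype, with 120 and 9 genes at an unadjusted p under 0.05 in deletion and wild-type cells.

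Within a library, deletion and wild-type cells carried shares of rRNA whose ratio lay nearer to 1 before the drug than from 20 min on. In the 4 untreated libraries the ratio of the deletion share to the wild-type share was 0.875 to 0.999 for RDN25-1, 0.830 to 0.944 for RDN18-1 and 0.922 to 1.21 for RDN5-1. From 20 min the ratio was 0.525 to 0.674, 0.455 to 0.639 and 0.450 to 0.766 in the 8 libraries, below 1 in all of them. Untreated, the log2 difference between deletion and wild-type cells was -0.17, -0.23 and -0.05 for the 3 rRNAs (edgeR's quasi-likelihood test, Benjamini-Hochberg adjusted p = 0.993, 0.961 and 0.998), in a comparison that called 0.541% of all genes. Despite the ratio, the shares of both genotypes moved together from library to library, with a Pearson correlation of their log2 shares over the 16 libraries of 0.947, 0.957 and 0.968; each pair of points shares a flask, a droplet run and the time course.

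The direct comparison of the responses, deletion minus wild type at 50 to 60 min, gave log2 differences of -0.17 for RDN25-1, -0.40 for RDN18-1 and -0.53 for RDN5-1 (SE 1.15, 0.65 and 0.80), and none passed edgeR's quasi-likelihood test (Benjamini-Hochberg adjusted p = 0.916, 0.627 and 0.596), while 58.3% of all genes were called in either direction. At the earlier treated intervals the differences ran from 0.05 down to -0.14 for RDN25-1, from 0.04 down to -0.27 for RDN18-1 and from 0.35 down to -0.33 for RDN5-1. None of those passed either, when 4.69%, 37%, 44.3%, 52.3% and 55.6% of all genes were called, nor did any with the culture as a block, when 8.72%, 44.5%, 51.3%, 59.2% and 61.8% were. Blocked by culture, RDN18-1 was lower in the deletion response by a log2 difference of -0.37 (SE 0.15; edgeR, adjusted p = 0.0349), in a fit that called 30.7% of all genes in that direction. With each library as a block, which compares deletion and wild-type cells of the same tube, RDN18-1 had -0.36 (SE 0.15; edgeR, adjusted p = 0.0427) and RDN5-1 had -0.56 (SE 0.13; adjusted p = 5.64e-04), against 31.3% of all genes called in that direction, and RDN25-1 had -0.16 (SE 0.16; adjusted p = 0.414). That fit also called RDN5-1 at 30 to 40 min (-0.34; edgeR, adjusted p = 0.0235) and at 40 to 50 min (-0.41; adjusted p = 0.00800), with 29.5% and 30.6% of all genes called in that direction. All 3 differences turned positive when sums were scaled by the number of cells in place of edgeR's TMM factors (0.80, 0.44 and 0.35). That scaling moved the median log2 value of all genes in this comparison to 0.61, against -0.01 with TMM and -0.67 with library totals. As plain shares of all UMIs, the 3 rRNAs rose less in deletion than in wild-type cells of each culture at 50 to 60 min. Against the untreated mean, RDN25-1 was 1.95-fold and 1.89-fold in deletion cells of cultures 1 and 2, and 3.37-fold and 3.25-fold in wild-type cells. For RDN18-1 these folds were 1.563 and 2.335, and 3.204 and 4.519. For RDN5-1 they were 3.69 and 3.36, and 8.28 and 7.99. The size and sign of the differences thus depended on the scaling. All genes called higher and lower numbered 1711 and 1525 with TMM, 815 and 2575 with library totals, and 1733 and 363 when scaled by cells.

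A share depends on the other RNAs counted, so UMIs per cell were set beside it. At 50 to 60 min the 3 rRNAs together gave 1402 and 394 UMIs per deletion cell in cultures 1 and 2, and 879 and 624 per wild-type cell. Before the drug they gave 271 and 441 (culture 1) and 202 and 243 (culture 2) per deletion cell, and 368 and 607 (culture 1) and 286 and 334 (culture 2) per wild-type cell. Against its own culture's untreated mean this was 3.94-fold and 1.77-fold in deletion cells and 1.80-fold and 2.01-fold in wild-type cells. UMIs of all other features were 1.92-fold and 0.843-fold in deletion cells, and 0.387-fold and 0.480-fold in wild-type cells. In wild-type cells of both cultures rRNA UMIs per cell were higher and other UMIs lower than before the drug, and in deletion cells of culture 1 both were higher.

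By rRNA, UMIs per cell at 20 to 60 min were 1.45-fold to 4.47-fold of the untreated mean for RDN25-1, 2.08-fold to 3.99-fold for RDN18-1 and 2.98-fold to 8.48-fold for RDN5-1 in deletion cells (8 sums each). In wild-type cells they were 1.41-fold to 2.18-fold, 1.77-fold to 3.4-fold and 3.11-fold to 5.17-fold. Ribosomal protein mRNAs, which come from 137 genes, are the protein side of the same ribosome and are under TORC1 control. In deletion cells of culture 1 they gave 2234 UMIs per cell at 50 to 60 min, above the untreated 1120 and 1469. In deletion cells of culture 2 they gave 1119, below the untreated 1626 and 1706. Wild-type cells of cultures 1 and 2 had 75.3 and 118 per cell, against 1427 to 2443 untreated. The 3 rRNAs held 0.628 and 0.352 UMIs for each ribosomal protein UMI in deletion cells at 50 to 60 min, against 0.124 to 0.30 untreated. In wild-type cells they held 11.7 and 5.29, against 0.137 to 0.317 untreated.

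**Figure D3:**
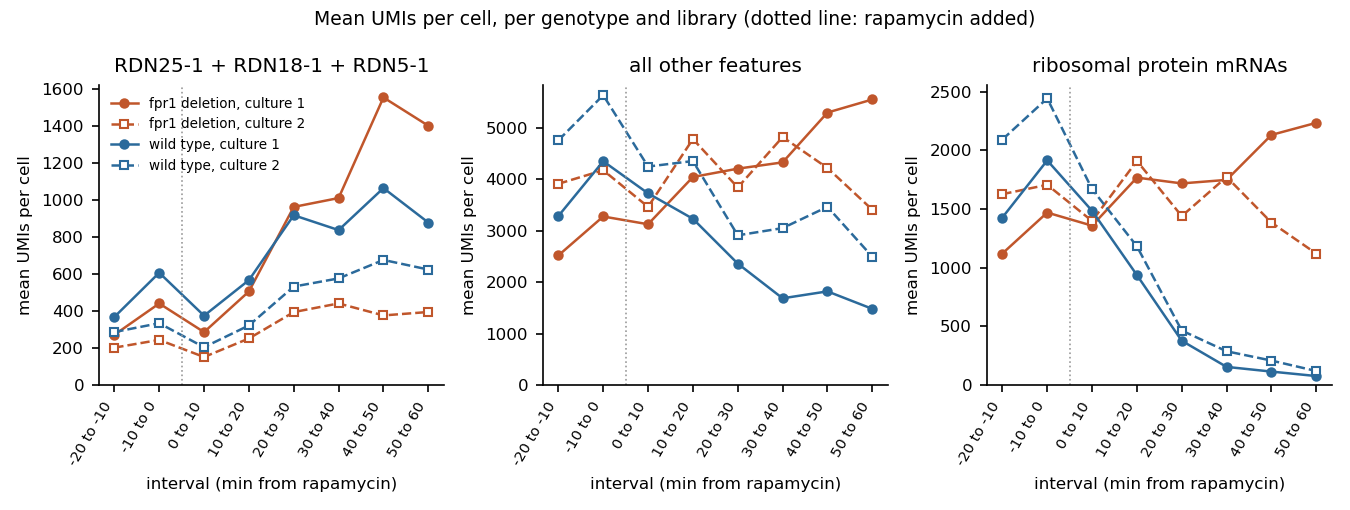
Mean UMIs per cell (y axis, linear) of the 3 rRNAs together, of all other features and of the ribosomal protein mRNAs by 10 min interval (x axis), for fpr1 deletion cells (orange) and wild-type cells (blue) of culture 1 (filled circles) and culture 2 (open squares). Ribosomal protein mRNAs drop to 75.3 and 118 UMIs in wild-type cells while the rRNAs end at 879 and 624.

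The balance between 25S and 18S varied between libraries and was close for both genotypes of a library. UMIs of RDN25-1 over UMIs of RDN18-1, which come from 1 precursor, stood at 3.1, 4.62, 4.04, 5.72, 3.08, 3.45, 4.40 and 4.76 in deletion cells of culture 1, and at 3.02, 4.44, 3.84, 5.54, 2.93, 3.03, 3.76 and 3.88 in wild-type cells of the same libraries. In culture 2 the ratio was 3.29, 3.63, 2.86, 3.70, 1.78, 2.12, 1.99 and 2.81 in deletion cells and 3.12, 3.41, 2.75, 3.52, 1.69, 1.86, 1.74 and 2.35 in wild-type cells. Both genotypes went up and down together across libraries, and the ratio dropped between 10 to 20 min and 20 to 30 min in both cultures. Divided by RNA length, the ratio ran 0.946 to 3.03 in deletion cells and 0.897 to 2.94 in wild-type cells.

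The ratio of 5S to 25S was higher from 20 min on than before the drug. For each 1000 UMIs of RDN25-1, deletion cells held 2.12 to 4.49 UMIs of RDN5-1 from 20 min on, against 1.12 to 1.66 before the drug. Wild-type cells held 1.87 to 3.77 from 20 min on, against 1.04 to 1.37 before the drug. These ranges did not overlap in either genotype. From 0 to 20 min the values were 1.22 to 1.99 in deletion cells and 1.05 to 1.55 in wild-type cells. In culture 2 the ratio went from 4.49 at 20 to 30 min to 2.67 at 50 to 60 min in deletion cells, and from 3.77 to 3.24 in wild-type cells. In culture 1 it went from 2.12 to 2.25 and from 1.87 to 2.62. These are ratios of raw UMIs and say nothing of the molar amounts of 5S and 25S rRNA.

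Shares per cell show how the rRNA was spread over cells. The median deletion cell of culture 1 gave 18.7% of its UMIs to rRNA at 50 to 60 min, against 8.18% and 10.6% in the untreated intervals, and in culture 2 the median was 9.88%, against 4.21% and 4.88%. The median wild-type cell gave 32.5% in culture 1, against 8.73% and 10.4%, and 18.4% in culture 2, against 5.00% and 4.89%. The 10th percentile of wild-type cells at 50 to 60 min was 14.4% in culture 1 and 9.58% in culture 2, above the untreated medians of their cultures. Cells above the 90th percentile of their own culture's untreated cells made up 56.4% and 53.1% of deletion cells and 84.3% and 88.8% of wild-type cells at 50 to 60 min.

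**Figure D4:**
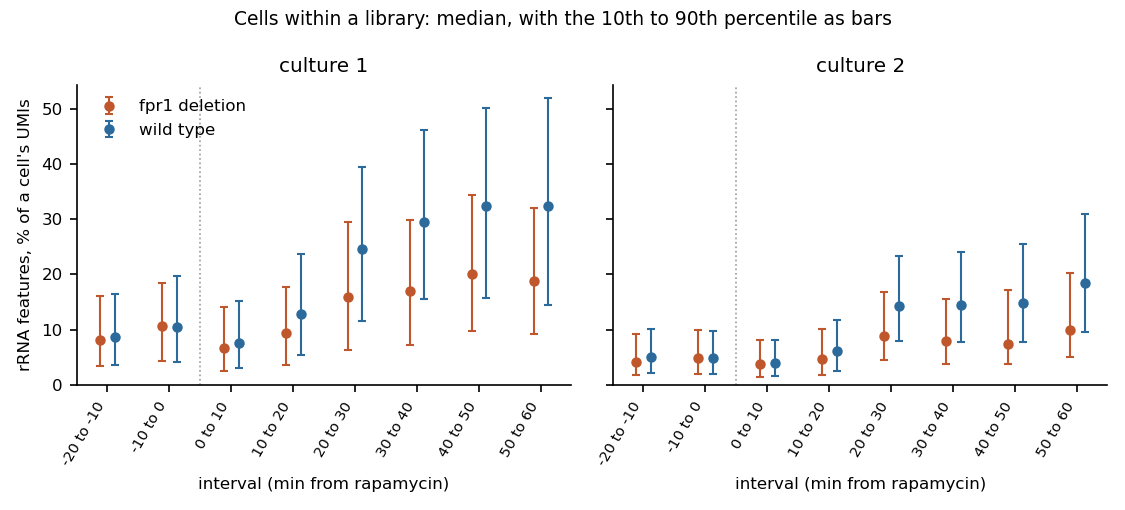
Share of each cell's UMIs in the 3 rRNAs (%, y axis) by 10 min interval (x axis) for culture 1 and culture 2, as the median cell (points) with the 10th to 90th percentile of cells (bars), for fpr1 deletion cells (orange) and wild-type cells (blue). Medians reach 18.7% and 9.88% in deletion cells and 32.5% and 18.4% in wild-type cells at 50 to 60 min, and the bars of adjacent intervals overlap. In wild-type cells of culture 2 the overlap is partial at the step. The bar spans 2.59% to 11.7% at 10 to 20 min and 7.91% to 23.3% at 20 to 30 min.

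Nearly every cell held RDN25-1 and RDN18-1, whatever its genotype. Before the drug, 1 of 2365 deletion cells and 9 of 45356 wild-type cells had no UMI of RDN25-1, and 5 and 39 had none of RDN18-1. RDN5-1 had at least 1 UMI in 43.8% to 72.3% of deletion cells from 20 min, against 17.9% to 30.7% before the drug. In wild-type cells it was found in 53.3% to 65.3% from 20 min, against 22.2% to 33.5% before the drug. Thinned to 1000 UMIs a cell, which left out 607 deletion cells and 7353 wild-type cells with fewer, the share was 14.1% to 27.2% from 20 min in deletion cells, against 5.72% to 9.56% untreated. In wild-type cells thinned likewise it was 26.5% to 46.7%, against 5.09% to 9.29% untreated. At equal depth, too, the shares from 20 min lay above all untreated ones in both genotypes, and the median of RDN5-1 was 0 UMIs a cell in all untreated sums.

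Across cells of 1 library, RDN25-1 and RDN18-1 went together when each was taken as a share of the cell's UMIs. The Pearson correlation of these log2 shares was 0.855 to 0.940 in deletion cells and 0.843 to 0.927 in wild-type cells. Cells share library and capture, so this is a description only. Cells were split into 4 equal bins by their other UMIs. In the deepest bin the rRNA share was 0.540 to 1.29 times that in the shallowest over the 16 libraries of deletion cells, and 0.903 to 1.24 times in wild-type cells. The plate held 6 strain codes of the deletion and 72 of the wild type. Their untreated rRNA shares, divided by the mean of their genotype and library, ran 0.921 to 1.11 and 0.965 to 1.04 over the deletion codes in cultures 1 and 2, and 0.793 to 1.08 and 0.931 to 1.08 over the wild-type codes. Before the drug, a code that was high in culture 1 was not generally high in culture 2, with a correlation between the cultures of 0.05 over 6 codes and -0.06 over 72 codes. From 20 to 60 min that correlation was -0.51 over the deletion codes and -0.50 over the wild-type codes, the smallest of which held 22 cells in culture 1.

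The mRNAs of the machinery that makes rRNA were counted from gene lists, in each genotype and as the difference of both responses (deletion minus wild type). All values in this and the next paragraphs are edgeR log2 changes at 50 to 60 min with Benjamini-Hochberg adjusted p under 0.05 as the call, and CPM are here scaled by TMM. Over all 5549 genes, 281 were higher and 356 lower in deletion cells (median log2 change 0.05), and 2323 were higher and 1999 lower in wild-type cells (median 0.11). Scaled to library totals the splits were 454 and 50 in deletion cells and 3595 and 951 in wild-type cells, with medians of 0.22 and 0.94, and scaled by cells they were 1638 and 1, and 1771 and 1397, with medians of 0.69 and 0.13. The difference of responses was called higher for 1711 and lower for 1525 of all 5549 genes, or 815 and 2575 with library totals. The blocked fit called 1028 genes in deletion cells.

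Of the 16 genes of RNA polymerase I and its initiation factors, 0 were called in deletion cells (median -0.07), and 14 fell in wild-type cells (median -1.87), or 9 with library totals, when 2 others were called higher. The difference of responses was called higher for 14 of them and lower for 0, or 9 and 1 with library totals. In the blocked fit 2 were called higher and 2 lower in deletion cells. RPA43, a stalk subunit, had 110 to 124 CPM in treated and 137 to 187 CPM in untreated deletion cells, and 1.60 to 1.61 CPM in treated and 148 to 168 CPM in untreated wild-type cells (wild-type log2 change -6.64, SE 0.22; edgeR, adjusted p = 3.35e-17). RPA49 and RPA34, which form a dimer on the enzyme, fell in wild-type cells (log2 changes -5.76 and -5.65). The wild-type ranges of these 3 genes before and after the drug lay far apart.

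For 5S transcription, the list of 22 RNA polymerase III subunits and factors held 2 lower genes in deletion cells (median -0.11), and 12 lower and 2 higher ones in wild-type cells (median -1.65). With library totals 10 of the 22 were called higher in wild-type cells and 12 lower. The deletion response was called above the wild-type one for 12 and below it for 1. RPC17, RPC31 and RPC53, subunits of the polymerase, fell in wild-type cells (log2 changes -4.51, -4.32 and -3.86). TFC3 and TFC4, subunits of the factor TFIIIC, rose by 1.07 and 0.73. TFC3 had 29.2 to 32 CPM in treated and 22.1 to 27.5 CPM in untreated deletion cells, against 47.0 to 50.6 CPM in treated and 21 to 27.2 CPM in untreated wild-type cells.

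Genes that cut and trim the precursor make up the next list. Of 14 nuclease and kinase genes of pre-rRNA processing measured out of 15 listed, 1 was lower in deletion cells (median -0.01), and 12 were lower and 1 higher in wild-type cells (median -1.19); with library totals 7 were lower and 2 higher. The deletion response was called above the wild-type one for 11 and below it for 0. RCL1, RNT1 and NOB1, which take part in cuts at several sites of the precursor, fell in wild-type cells (log2 changes -4.47, -3.14 and -2.78), and POP1, a subunit of RNase P and RNase MRP, rose by 0.41. The 6 genes of the 5S RNP, which carries 5S rRNA into the large subunit, held 4 lower genes in deletion cells (median -0.55), or 1 with library totals, and all 6 fell in wild-type cells (median -5.62). SYO1, RPF2 and RRS1, which import or dock that particle, fell in wild-type cells (log2 changes -6.12, -5.85 and -5.69). RPL5, RPL11A and RPL11B are on this list and on the ribosomal protein list. For all 6 the difference of responses was called higher. Of the 137 ribosomal protein genes, 87 were lower in deletion cells (median -0.53) and 135 in wild-type cells (median -4.62). In deletion cells that count was 30 with library totals and 0 when scaled by cells, when 2 were called higher. For 135 of the 137 the difference of responses was called higher.

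Lists of RNA tailing and breakdown followed. Of 7 genes of the TRAMP complex and its helpers, which add short poly(A) tails to faulty nuclear RNA, 1 was lower in deletion cells (median 0.12) and 5 were lower in wild-type cells (median -1.41); MTR4, NRD1 and AIR1 fell there (log2 changes -4.62, -2.48 and -2.0). The difference of responses was called higher for 5 of the 7. Of 10 genes of rRNA and ribosome breakdown, 0 were called in deletion cells (median 0.22), and 5 rose and 2 fell in wild-type cells (median 0.37), or 8 and 1 with library totals. The difference of responses was called higher for 2 and lower for 4. RNY1, the vacuolar RNase of the T2 family, had 5.89 to 10.1 CPM in treated and 0.788 to 8.19 CPM in untreated deletion cells, and 40.0 to 43.9 CPM in treated and 3.51 to 4.71 CPM in untreated wild-type cells (wild-type log2 change 3.33, SE 0.18; edgeR, adjusted p = 1.58e-13). PHM8, a nucleotidase that acts on the products of RNA breakdown, rose by 3.46, and RTT101, a ubiquitin ligase scaffold that takes part in decay of faulty 25S rRNA, rose by 1.53. DOM34 and BRE5, which act in ribosome rescue and in ribophagy, fell (log2 changes -2.0 and -0.61).

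Other stable non-coding RNAs, whose mature forms also lack a long poly(A) tail, were counted beside rRNA. Of 9 such features with a column, 6 were tested; 0 were called in deletion cells (median 0.81), and 4 rose and 0 fell in wild-type cells (median 0.90). The difference of responses was called for 0 of the 6 with TMM and for 1 with library totals. All were scarce. snR19, the U1 spliceosomal RNA, had 0.610 to 0.872 CPM in treated and 0 to 2.37 CPM in untreated deletion cells, and 2.91 to 7.79 CPM in treated and 0.913 to 1.78 CPM in untreated wild-type cells (wild-type log2 change 1.93, SE 0.39; edgeR, adjusted p = 1.07e-04). SCR1, the RNA of the signal recognition particle and a product of RNA polymerase III like 5S rRNA, rose by 1.12 in wild-type cells, and snR7-L, the long form of U5, rose by 1.57. In deletion cells the log2 changes of SCR1 and snR7-L were 1.54 (SE 0.56) and 4.62 (SE 2.60), and that of snR19 was -0.58 (SE 1.09). None of these was called (edgeR, adjusted p = 0.0773, 0.271 and 0.780), and snR7-L had 0 to 1.58 CPM in untreated deletion cells. TAR1, YLR154C-G and YLR154C-H, which lie in the rDNA array, had 0 UMIs in all 173347 cells and 0 bulk counts, which allows up to 0.00425 CPM over all cells. Mitochondrial rRNA was not analysed here.

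Over the 32 sums, the features whose log2 levels went most like those of the rRNAs were looked up among 4824 features with at least 10 CPM on average. TFB5, SMX2, SCS3, YJL077W-A and DAD4 came closest to RDN25-1, with Pearson correlations of 0.91, 0.90, 0.88, 0.88 and 0.87. For RDN18-1 they were YLR146W-A (0.95), UBP14 (0.95), RTG1 (0.94), HEH2 (0.93) and SOM1 (0.93), and for RDN5-1 they were UBP14 (0.96), YLR146W-A (0.94), RAD16 (0.93), SMX2 (0.93) and HEH2 (0.93). Among the rRNAs themselves RDN18-1 and RDN5-1 were closest (0.96), and RDN25-1 reached 0.87 with each of them. These points share libraries, depth and the time course.

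In bulk RNA the 3 rRNAs were a minor part of the counts. RDN25-1 took 0.0997% to 1.02% of counts over the 33 libraries (median 0.324%), RDN18-1 0.0258% to 0.571% (median 0.141%) and RDN5-1 at most 0.0578% (median 0.0127%). Library totals ran from 3800 to 111293 counts (median 41501), so RDN5-1 rested on 0 to 24 counts a library. It had 0 counts in culture 1 at 0 min and in culture 2 at 2.5 min, where 3 counts would be 374 and 789 CPM, above most of its other levels. In RNA from whole cultures fewer cells and less RNA per cell cannot be told apart.

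RDN25-1 stood at 3243, 4806 and 3316 CPM in bulk cultures 1, 2 and 3 at 0 min. It was at 1351, 997 and 2073 CPM at 30 min, at 3318, 1064 and 1739 CPM at 45 min, and at 2587, 2184 and 1812 CPM at 120 min. The 30 min and 120 min values lay below all 0 min values, and the 45 min value of culture 1 did not. At 90 min they were 5738, 7938 and 3446 CPM, each above the 0 min value of its own culture. Culture 2 at 15 min was the highest of all, at 10227 CPM.

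RDN25-1 fell at 30 min by 1.68 on the log2 scale (SE 0.42; edgeR's quasi-likelihood test, Benjamini-Hochberg adjusted p = 0.00173) and at 45 min by 1.28 (SE 0.43; adjusted p = 0.0150), when 18.6% and 22.2% of the 910 genes tested were called lower. The 30 min call was lost without culture 2 (log2 change -1.18; edgeR, adjusted p = 0.0562), and the 45 min call without culture 2 (-0.72, adjusted p = 0.303) or culture 3 (-0.99, adjusted p = 0.127). The 45 min call was also lost with DESeq2 (-0.84, adjusted p = 0.209), library totals (-0.97; edgeR, adjusted p = 0.0968), RLE factors (-0.86, adjusted p = 0.191) and libraries under 10000 counts left out (-1.24, adjusted p = 0.0798). At the other times up to 90 min no rRNA was called against 0 min, when 0%, 1.54%, 2.75%, 9.12%, 15.5%, 42.5% and 45.9% of genes were called in either direction in order of time. At 120 min the log2 change was -0.93 (SE 0.41; edgeR, adjusted p = 0.0555) beside 49.2% of genes called in either direction. In bulk RDN25-1 was lower at 30 min than at 0 min, whereas in wild-type single cells its share was above the untreated share of its culture from 20 min; the sets differ in cells, RNA preparation and library protocol, and their difference was not tested.

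RDN18-1 stood in bulk at 1123, 1618 and 1049 CPM at 0 min, 322, 258 and 909 CPM at 30 min, 2104, 1111 and 507 CPM at 45 min and 701, 603 and 612 CPM at 120 min. The 30 and 120 min values lay below all 0 min values, and the 45 min values overlapped them (log2 change -0.42, SE 0.75; edgeR, adjusted p = 0.695). At 7.5 and 60 min its log2 changes were 0.74 and 0.65, beside -0.65 and -0.33 for RDN25-1, and none of these passed edgeR's test (adjusted p of 0.462 to 0.687). Its log2 change at 30 min was -1.79 (SE 0.78) and did not pass (edgeR, adjusted p = 0.0880), while with the culture as a block it was -1.62 (SE 0.57; adjusted p = 0.0279), when 19.3% of genes were called lower. At 120 min it was -1.14 (SE 0.74; edgeR, adjusted p = 0.209). RDN5-1 stood at 0, 217 and 84.0 CPM at 0 min, at 103, 189 and 400 CPM at 30 min and at 191, 287 and 153 CPM at 120 min. Its log2 changes of 0.23 and 0.34 at 30 and 120 min (SE 0.75 and 0.72) did not pass (edgeR, adjusted p = 0.853 and 0.723), and the first turned to -0.24 without culture 3.

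The bulk barcode oligos were numbered in one run for 0 to 15 min and in another for 30 to 120 min, so the change between both sets cannot be told apart from time after 15 min. By set, the median of RDN25-1 was 2185 CPM at 30 to 120 min (15 libraries) and 3297 CPM at 0 to 15 min (18 libraries). The median of RDN18-1 was 980 CPM at 30 to 120 min and 1585 CPM at 0 to 15 min, and that of RDN5-1 was 191 CPM at 30 to 120 min and 86.9 CPM at 0 to 15 min. The ranges of both sets overlapped for each rRNA. Of the 137 ribosomal protein genes, 130 were tested in bulk, and 127 were lower and 1 higher at 120 min against 0 min (median log2 change -3.35). Over all 910 genes 25.7% were lower and 23.5% higher there, with a median of 0.27.

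**Figure D5:**
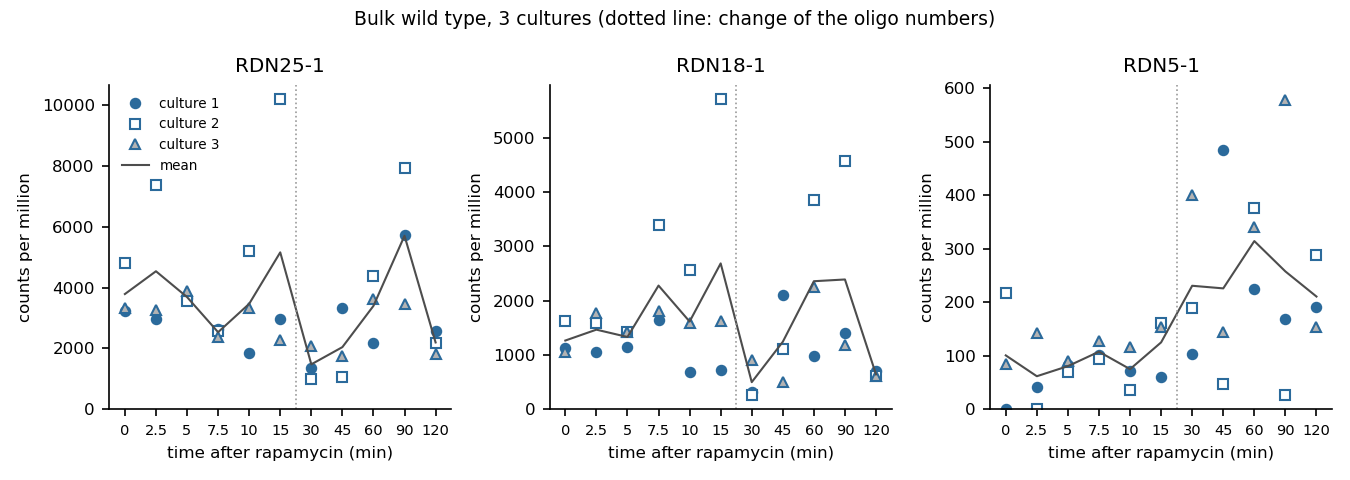
CPM of RDN25-1, RDN18-1 and RDN5-1 (y axis) in 33 bulk wild-type libraries at 11 times after rapamycin (x axis, times evenly spaced), 1 marker for each of 3 cultures, with the mean as a line and a dotted line where the numbers of the barcode oligos change. RDN25-1 is at 997 to 2073 CPM at 30 min, below all 3 values at 0 min, and its highest values at 15 and 90 min are those of culture 2.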

How the data were processed

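The rRNAs and the gene lists were chosen with earlier results of these data known. Per the labels' protocols, single-cell libraries were made with the 10x Chromium 3' kit (v3.1) and bulk libraries from TRIZOL RNA with barcoded dT30VN primers that carry UMIs. Per the submitters' processing notes, bcl2fastq, kallisto 0.46.1, bustools 0.39.3 and the build sacCer3 were used, with no role or order given. The authors deposited counts: UMI counts per cell with culture, interval, genotype and strain code, and a count per gene and bulk library, and the sources used here do not say if the bulk counts are UMIs or reads, nor how reads of near-identical rDNA repeats were counted. The cell table holds 173347 cells, 14 fewer than the design text states, the lowest with 500 UMIs; no cell was removed and no doublets were called. Mapping of 5833 of 5843 features to RefSeq was by locus tag or symbol. 16 genotype PCR libraries were not analysed here.

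UMIs were summed by genotype and library (32 sums). edgeR 4.0.16 (R 4.3.3) filtered 5549 genes in single-cell sums and 910 in bulk with filterByExpr, which all 3 rRNAs passed, scaled by TMM factors and fitted the quasi-likelihood model over all groups (16 and 22 residual degrees of freedom), with Benjamini-Hochberg adjustment over all genes and 0.05 as the threshold. The scripts were tested on simulated data. Successive samples of a group came from 1 flask, and culture numbers pair the samples by design: over genes, deviations of same-numbered sums from their group means correlated at 0.03 to 0.40 in deletion cells (28 pairs), -0.03 to 0.84 in wild-type cells (28 pairs) and -0.26 to 0.37 in bulk (165 pairs). P-values of the fits without a block measure the spread between these cultures, 2 a group in single cells and 3 in bulk. With the culture or the library as a block that spread is taken out, and p-values measure what remains within it. Fits other than the library block treat the deletion and wild-type sums of a library as independent, though both share a flask and droplet run. Alternatives were library totals, RLE factors, scaling without the rRNAs or by cell number, DESeq2 1.42.0, no filter on low counts, the culture or the library as a block, the last untreated interval alone, the groups compared alone, cells of extreme depth left out, thinning to 1000 UMIs, bulk libraries under 10000 counts left out, and each library left out; removal of the wild-type share given by FPR1 was added after seeing the data. Named genes were the 3 rRNAs, the 5 features most like each by Pearson correlation of log2(CPM + 1), and up to 3 called genes per direction and list with the largest change in wild-type cells at 50 to 60 min. Intervals are exact binomial (Clopper-Pearson, 95%), and floors are 3 counts.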

Additional observations from a re-analysis of the deposited data

Results flagged for a closer look

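At 50 to 60 min the response of RDN18-1 differed between fpr1 deletion and wild-type cells in both blocked fits. From 30 min on that of RDN5-1 differed in the fit blocked by library. RDN18-1 was called at no earlier treated interval in either fit. With the culture as a block, the response of RDN18-1 at 50 to 60 min was lower in deletion cells by a log2 difference of -0.37 (edgeR's quasi-likelihood test, Benjamini-Hochberg adjusted p = 0.0349), when 30.7% of all genes were called in that direction, and RDN5-1 was not called (-0.55, adjusted p = 0.106). Blocked by library it was -0.36 (edgeR, adjusted p = 0.0427), and that of RDN5-1 was -0.34 at 30 to 40 min (adjusted p = 0.0235), -0.41 at 40 to 50 min (adjusted p = 0.00800) and -0.56 at 50 to 60 min (adjusted p = 5.64e-04). That fit called 29.5%, 30.6% and 31.3% of all genes in the same direction at these 3 intervals. Without a block, none of the interactions passed at any of the 6 treated intervals for the 3 rRNAs. Scaled by cells in that fit, the differences at 50 to 60 min turned to 0.80, 0.44 and 0.35 for RDN25-1, RDN18-1 and RDN5-1. As plain shares of all UMIs, each of these rRNAs rose less in deletion than in wild-type cells of both cultures at that interval. Up to 7.91% of the wild-type FPR1 level was counted in deletion cells. With the share given by FPR1 removed from the deletion sums, the unblocked differences at 50 to 60 min were -0.17, -0.42 and -0.55 for RDN25-1, RDN18-1 and RDN5-1, and in the blocked fits its part was not tested.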

How the results depend on the processing

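Outside leaving out 1 library, 446 of 502 recomputed values kept their direction and their side of the threshold, 15 lost a call, 34 gained one and 7 turned sign. With 1 library left out, 175 of 219 kept both, 23 lost a call and 21 turned sign. With the culture as a block, the calls gained at 50 to 60 min were RDN25-1 in deletion (0.77) and wild-type cells (0.91), RDN18-1 (0.75) and RDN5-1 (1.67) in deletion cells, and the lower RDN18-1 response in deletion cells (-0.37); the block changed no call beyond these and those given beside the results above. The library as a block gave -0.36 for RDN18-1 and -0.56 for RDN5-1. Scaled by library totals, RDN25-1 in wild-type cells (1.74) and RDN5-1 in deletion cells (1.87) were called, and scaled by cells RDN18-1 (1.51) and RDN5-1 (2.54) in deletion cells. Scaling by cells turned the interactions to 0.80, 0.44 and 0.35, and the change of RDN18-1 between both untreated intervals to 0.21 in deletion and 0.22 in wild-type cells. The untreated genotype difference of RDN5-1 turned to 0.086 with library totals, 0.0072 with the last untreated interval alone and 0.051 without culture 2 at -20 to -10 min. DESeq2 called RDN5-1 in deletion cells (1.67). RDN18-1 in wild-type cells lost its call with no filter on low counts (0.98) and with the last untreated interval alone (1.16). The cause of these was not tested.

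With 1 library left out at 50 to 60 min, RDN25-1 ranged from -0.11 to 1.34 in deletion and 0.07 to 1.44 in wild-type cells, RDN18-1 from 0.28 to 1.05 and 0.65 to 1.34, and RDN5-1 from 0.98 to 2.18 and 1.56 to 2.62. The interactions ranged from -0.22 to -0.08, -0.45 to -0.29 and -0.63 to -0.42. The untreated genotype differences ranged from -0.26 to -0.12, -0.34 to -0.18 and -0.15 to 0.051. Between both untreated intervals, RDN25-1 ranged from -0.42 to 1.00 in deletion and -0.43 to 0.77 in wild-type cells, RDN18-1 from -0.62 to 0.62 and -0.59 to 0.37, and RDN5-1 from -0.10 to 0.92 and -0.20 to 0.61. In bulk at 30 min they ranged from -1.77 to -1.18, -2.27 to -1.16 and -0.24 to 1.46, and at 120 min from -0.95 to -0.66, -1.06 to -0.85 and 0.42 to 1.26. RDN25-1 at 20 to 30, 30 to 40 and 40 to 50 min ranged from -0.28 to 1.11, -0.40 to 1.14 and -0.63 to 1.52 in deletion cells, and from -0.19 to 1.09, -0.31 to 1.24 and -0.43 to 1.42 in wild-type cells.

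Counts of all genes called moved widely in deletion cells. At 50 to 60 min 637 became 43 with the groups compared alone, 79 without culture 2 at 50 to 60 min, 237 after thinning, 267 with the last untreated interval, 357 with the FPR1 share removed, 1028 with the block and 1639 scaled by cells. At 20 to 30, 30 to 40 and 40 to 50 min, 169, 255 and 657 ranged over 0 to 489, 0 to 972 and 26 to 2605, and the untreated genotype count of 30 over 7 to 127. In wild-type cells at 20 to 30 min 3892 became 2550 and in the interaction at 50 to 60 min 3236 became 2096, both scaled by cells. Without bulk culture 2, 259, 318 and 448 at 30, 45 and 120 min became 101, 128 and 281. Depth limits RDN5-1 in bulk, where it had 0 to 24 counts, and the number of cultures limits the single-cell tests.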
